A study of Oryza sativa Indica Group with 226 samples.

Results

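Chitinases and the receptor kinase CERK1 were followed in dark-grown rice shoots through the probe sets whose single annotated gene carries the name Cht1, Cht2, Cht3, Cht6 or CERK1 as symbol or synonym. These 5 names matched 8 genes, of which 7 (of 17905 such genes on the array) had a probe set of their own, giving 11 of the 57381 probe sets on the Affymetrix Rice Genome array. Of these, 8 probe sets of 6 genes had a mean log2 value of at least 5 over all arrays and entered the tests, among 27735 tested in all. The other 3 probe sets were dim and stayed out of the main fits and the pairs. They entered the fits without the filter on low values and the correlations of replicate 1 with replicate 2 and with array measures.

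The 2 indica parents and the inbred progeny of their cross were profiled. Minghui 63 and Zhenshan 97 had 3 arrays each, and 110 recombinant inbred lines (lines fixed by inbreeding, each a mosaic of both parental genomes) had 2 arrays each, labelled replicate 1 and replicate 2. All seedlings were untreated: seeds were soaked for 48 h, germinated in darkness at 35 °C, and shoots were taken after a further 72 h of dark growth at 25 °C. No pathogen or chitin treatment was part of the design, so the values are levels in unchallenged seedlings, and the number of arrays limits their precision.

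Chitinases are enzymes that cut chitin, the polymer of N-acetylglucosamine in fungal cell walls. Plants make several families of them, and many are counted among the pathogenesis-related proteins. The released fragments are recognised at the rice cell surface by the lysin motif (LysM) protein CEBiP together with the LysM receptor kinase CERK1, which passes the signal on through cytoplasmic kinases to MAP kinases and the respiratory burst oxidases.

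Several of the names are shared between genes in the annotation. Cht1 (LOC4342115, also RC24) and Cht3 (LOC4342114) lie next to each other on chromosome 6, with 0 genes between them in the reference gene order. Cht1 had the probe set Os.22000.1.S1_at, and Cht3 had Os.2692.1.S1_x_at and Os.51172.1.S1_x_at, called here its first and second probe set. Cht6 on chromosome 2 had Os.11894.1.S1_at. The name Cht2 led to LOC4338718 on chromosome 5, which had no probe set assigned to it alone, and to LOC4349267 on chromosome 10, which the annotation also names Cht8 and which is called Cht8 here. Cht8 had Os.22058.1.S1_at and Os.3415.1.S1_s_at, called its first and second probe set, and the dim Os.3415.1.S1_at. Cht9 (LOC4338719), next to LOC4338718 on chromosome 5 with 0 genes between them, was matched through its synonym Cht1 and had the dim probe set Os.47564.1.S1_at. CERK1 (LOC4346173, also RLK9) on chromosome 8 had Os.12634.1.S1_at. A separate gene on chromosome 9, RLK10, also listed as RLCK276, carries CERK1 as a synonym and had Os.36979.1.S1_x_at and the dim Os.16896.1.S1_at. Probe sets with the suffixes _x_at and _s_at can hold probes that match related sequences, so the Cht3 values, the second Cht8 value and the RLK10 value may contain signal from relatives. How far they do was not tested.

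Replicate 2 arrays of the lines differed from replicate 1 arrays at most probe sets, and this bears on every result over the lines. Of all tested probe sets, 43.7% were higher and 48.5% lower in replicate 2 (limma on the paired differences, adjusted p under 0.05). The labels do not say what the replicate numbers share. The log2 difference between the 3′ and 5′ ends of the actin and GAPDH control transcripts, a measure of RNA integrity, had a median of 1.24 in replicate 1 and 1.52 in replicate 2, where it reached 4.25. It lay between 1.86 and 1.98 in Minghui 63 and between 1.63 and 2.32 in Zhenshan 97. In 9 lines the replicate 1 array did not match its own replicate 2 array best, and 18 lines formed 9 pairs that were nearly alike. Markers of shoot and greening tissue were all above the Tag controls (bacterial tag sequences that mark background, with means between 2.55 and 4.63 on the parent arrays), while 4 of the 7 seed markers measured, storage genes and RAmy3D, lay within that background. Of 6 root markers, 3 in Minghui 63 and 4 in Zhenshan 97 did so too.

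The first comparison asked whether the parents differed. Cht1 and Cht3 measured lower in Minghui 63 than in Zhenshan 97, and CERK1 measured higher. These were 3 of the 8 tested probe sets, against 10.5% of all tested probe sets (5.59% lower and 4.93% higher in Minghui 63). The 3 calls lie close to the threshold and were lost when single arrays were left out, as given below.

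Cht1 read 6.90, 6.14 and 6.78 on the Minghui 63 arrays and 7.79, 7.64 and 7.38 on the Zhenshan 97 arrays (log2 values, replicates 1 to 3). Each Zhenshan 97 array was above every Minghui 63 array. The means were 6.61 ± 0.41 (SD, n = 3) and 7.60 ± 0.21, a log2 difference of -0.997 (Minghui 63 minus Zhenshan 97, SE 0.23, limma adjusted p = 0.0372).

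The neighbouring gene Cht3 differed in the same direction at its first probe set. It read 5.18, 5.07 and 5.21 in Minghui 63 and 5.76, 5.81 and 5.59 in Zhenshan 97, with no overlap. The log2 difference was -0.57 (SE 0.14, limma adjusted p = 0.0419). The second Cht3 probe set read 5.06, 5.06 and 5.32 against 5.28, 5.57 and 5.60, which overlapped, and its log2 difference of -0.34 did not pass (adjusted p = 0.23).

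CERK1 was the receptor of the group and went the other way. It read 8.88, 8.81 and 8.85 in Minghui 63 and 8.36, 7.98 and 8.36 in Zhenshan 97, with no overlap. The log2 difference was 0.61 (SE 0.16, limma adjusted p = 0.0492).

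The remaining 4 tested probe sets did not pass. The first Cht8 probe set read 7.76, 7.22 and 7.14 in Minghui 63 and 8.03, 7.69 and 8.24 in Zhenshan 97, so that the highest Minghui 63 array was above the lowest Zhenshan 97 array (log2 difference -0.61, SE 0.22, adjusted p = 0.136). Its second probe set read 7.12, 7.29 and 6.89 against 7.52, 7.41 and 8.29. The latter values did not overlap, but 1 Zhenshan 97 array stood well above the others, and the log2 difference of -0.64 had an SE of 0.25 (adjusted p = 0.164). Non-overlap of 3 against 3 arrays was common here: 32.3% of all tested probe sets showed it.

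Cht6 read 6.0, 6.13 and 6.31 against 6.48, 6.65 and 6.18 (log2 difference -0.29, adjusted p = 0.347). RLK10 read 6.78, 6.76 and 7.34 against 7.15, 7.13 and 6.97 (log2 difference -0.12, adjusted p = 0.748). In both genes the parents overlapped.

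The 3 dim probe sets lay at or near background in the parents. Cht9 read 3.09, 3.02 and 3.17 in Minghui 63 and 3.65, 4.04 and 2.83 in Zhenshan 97. The dim Cht8 probe set stayed between 2.08 and 2.62, below the lowest Tag control mean on all but 1 parent array. The dim RLK10 probe set read between 3.34 and 4.87. These readings set no lower limit on what the genes express.

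Of the 3 calls, 0 remained without Zhenshan 97 replicate 1 or replicate 2, or without any 1 of the Minghui 63 arrays. Without Zhenshan 97 replicate 3, 2 remained (Cht1 and the first Cht3 probe set). Over all 27735 tested probe sets the main fit called 2917. The fits on fewer arrays that kept 0 of the 3 called 1164 to 2723 of all, and the fit without Zhenshan 97 replicate 3 called 3146. With the arrays centred on their medians, 1 call (CERK1) remained, and with all 226 arrays in the fit 0 remained, where 5.02% of all tested probe sets were called. With the replicate number as a block 0 of 8 were called, against 3.37% of all. No direction turned in any of these fits: over 11 alternatives the Cht1 difference ran from -1.14 to -0.76 and the CERK1 difference from 0.49 to 0.68.

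All 6 shoot and greening markers measured were also called lower in Minghui 63. Their summed log2 level was between 13.64 and 13.72 in Minghui 63 and between 14.87 and 14.94 in Zhenshan 97. The root marker sum was between 8.17 and 8.62 in Minghui 63 and between 8.56 and 8.78 in Zhenshan 97, and the seed marker sum between 11.2 and 11.4 and between 11.3 and 11.5. The part of these tissue differences in the Cht1, Cht3 and CERK1 values was not tested, and in whole shoots more cells of a kind and more transcript per cell cannot be told apart.

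**Figure D1:**
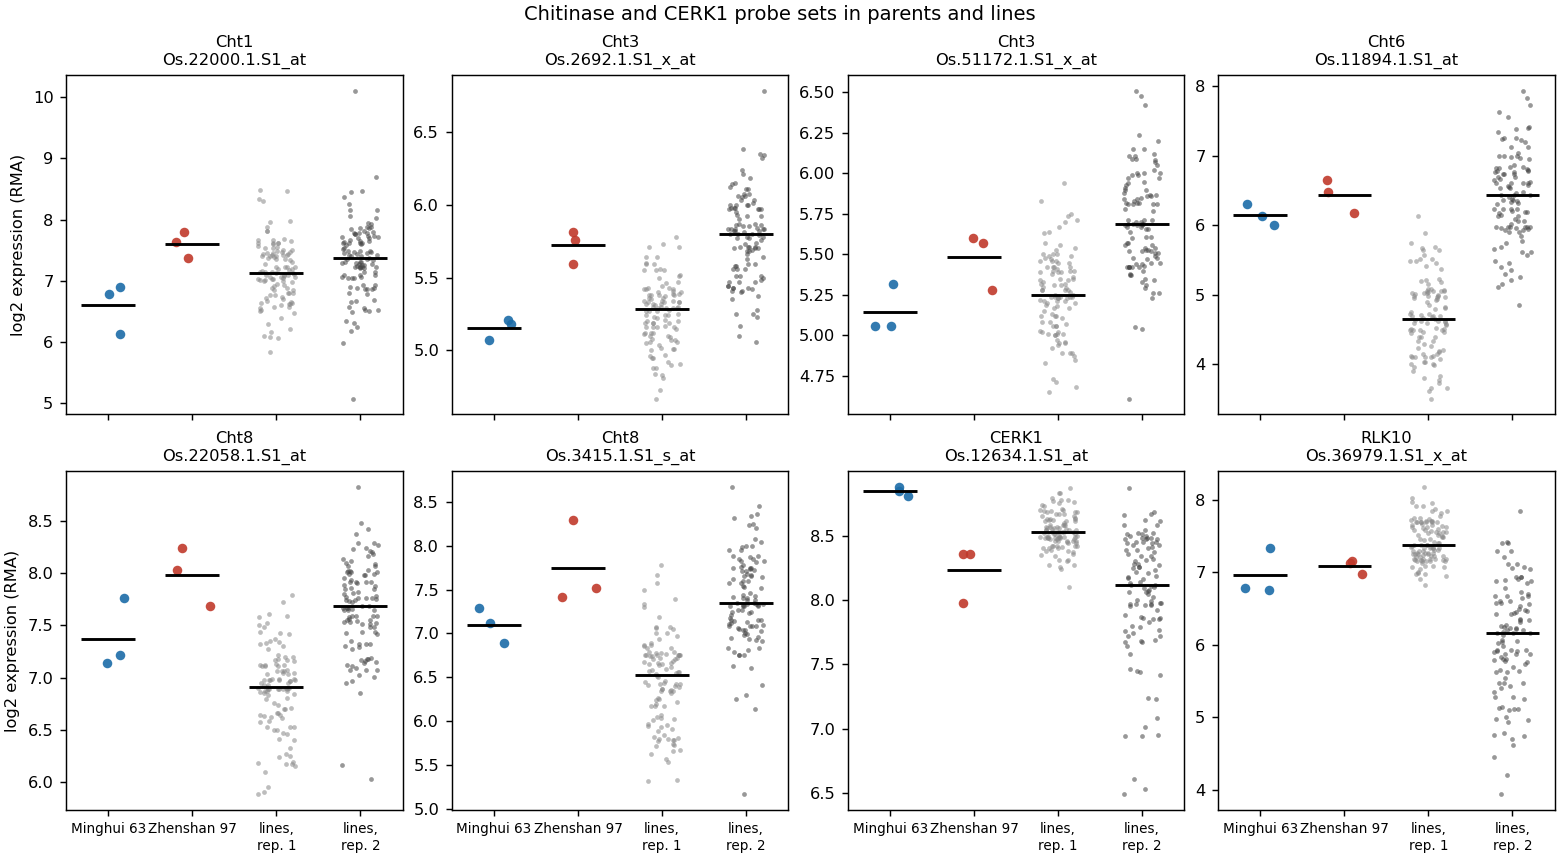
Log2 expression (RMA values) of the 8 tested probe sets on each array of Minghui 63 (blue), Zhenshan 97 (red) and the lines in replicate 1 (light grey) and replicate 2 (dark grey); each point is 1 array, bars are means for the parents and medians for the lines, and each panel has its own scale. The Zhenshan 97 points lie above the Minghui 63 points for Cht1 and the first Cht3 probe set and below them for CERK1, and the replicate 1 lines lie below the parents for Cht6.

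The lines differed in level at every tested chitinase, least at Cht3 (SD 0.23 to 0.31), and the levels depended on the replicate number. Cht1 had a lowest, median and highest log2 value of 5.84, 7.14 and 8.49 in replicate 1 and of 5.08, 7.37 and 10.10 in replicate 2. The replicate 1 values lay within the range of the 6 parent arrays (6.14 to 7.79) in 97 of 110 lines, with 9 lines above and 4 below it. In replicate 2, 89 lines were within it, 19 above and 2 below. The highest replicate 2 value, 10.10, belonged to RIL071, whose replicate 1 array read 7.09.

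Cht3 ran from 4.67 over a median of 5.29 to 5.78 at the first probe set in replicate 1, and from 5.06 over 5.80 to 6.78 in replicate 2. Its second probe set ran from 4.65 over 5.25 to 5.94, and from 4.61 over 5.69 to 6.51. The lowest Cht3 values lay near the highest Tag control mean on the line arrays, 4.63. More than the highest parent array was read in 52 and 66 of 110 lines in replicate 2 at the first and second probe set, against 0 and 9 lines in replicate 1.

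Cht6 showed the largest gap between replicate numbers among the chitinases tested. Its lowest, median and highest values were 3.51, 4.66 and 6.13 in replicate 1 and 4.86, 6.43 and 7.93 in replicate 2. The replicate 1 median lay near the highest Tag control mean on the line arrays, 4.63. In replicate 1, 109 of 110 lines were below all 6 parent arrays, whose range was 6.0 to 6.65. In replicate 2, 31 lines were below that range, 39 within it and 40 above it.

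Cht8 ran from 5.88 over 6.91 to 7.79 at the first probe set in replicate 1 and from 6.03 over 7.69 to 8.83 in replicate 2. Its second probe set ran from 5.32 over 6.53 to 7.78 and from 5.17 over 7.35 to 8.67. In replicate 1, 85 and 93 lines were below every parent array at the first and second probe set, and 0 were above. In replicate 2 most lines, 90 and 91, fell within the parental range.

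The kinases went the other way. CERK1 was narrow in replicate 1, from 8.10 over 8.53 to 8.87, with all 110 lines within the parental range, and wider in replicate 2, from 6.49 over 8.12 to 8.87, with 41 lines below every parent array. RLK10 ran from 6.83 over 7.38 to 8.18 in replicate 1, where 60 lines were above every parent array, and from 3.94 over 6.17 to 7.85 in replicate 2, where 89 were below. For Cht6 and both Cht8 probe sets the replicate 1 lines had the lowest median of the 4 groups (parents and replicate numbers). For CERK1 and RLK10 the replicate 2 lines did. For Cht1 the ranges of the lines in both replicate numbers covered all parent arrays. The replicate 2 ranges of all 8 probe sets overlapped the replicate 1 ranges.

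Set against each other within a line, replicate 2 was higher for every tested chitinase probe set and lower for both kinases. The mean log2 difference (replicate 2 minus replicate 1) was 1.74 (SE 0.075) for Cht6, which was higher in replicate 2 in 110 of 110 lines. It was 0.78 and 0.92 for the first and second Cht8 probe set, higher in 103 and 104 lines, and 0.52 and 0.45 for the Cht3 probe sets, higher in 102 and 94 lines. Cht1 moved by 0.22 (SE 0.067, limma adjusted p = 0.00198), higher in only 69 lines, and after median centring of the arrays by 0.08, which did not pass (adjusted p = 0.226).

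CERK1 had a mean log2 difference of -0.49 (SE 0.047) and was lower in replicate 2 in 93 lines, and RLK10 had a mean difference of -1.35 (SE 0.069) and was lower in 109 lines. Among all tested probe sets 92.2% passed this test, so that 8 of 8 passing says nothing particular about these genes. Median centring moved the median of this difference over all tested probe sets from -0.05 to -0.18. The dim probe sets moved too: Cht9 was higher in replicate 2 in 98 lines with a median difference of 0.80, and the dim RLK10 probe set was lower in all 110 lines with a median difference of -2.33.

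**Figure D2:**
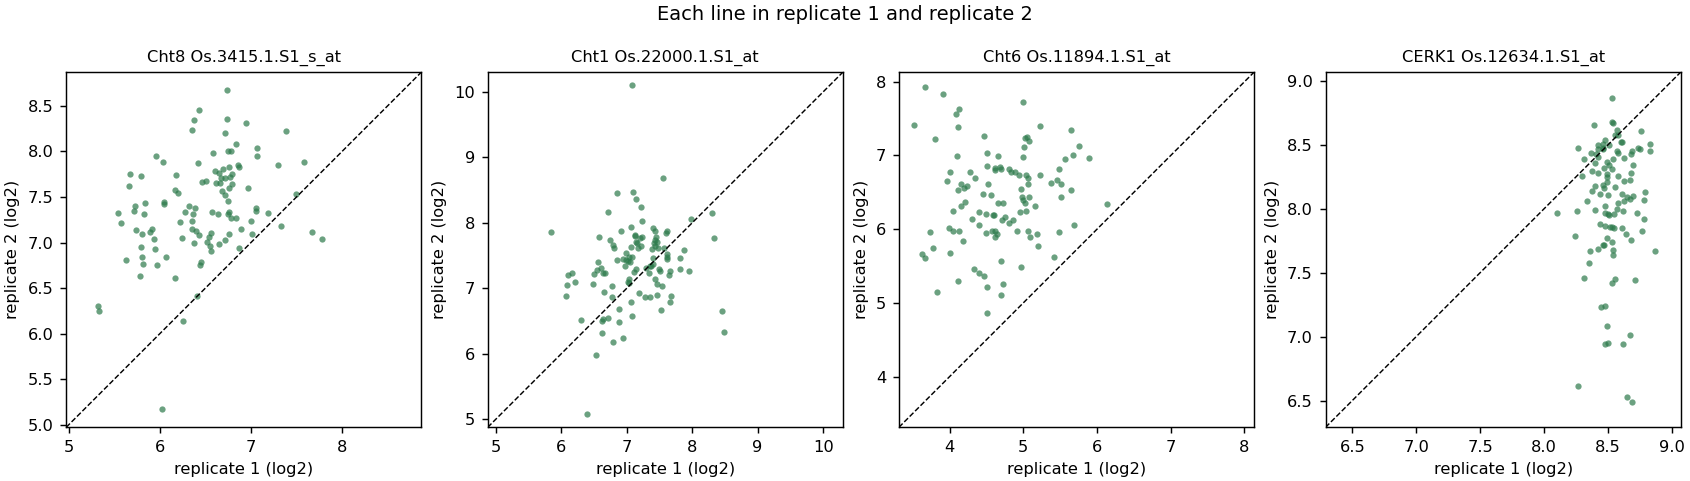
Log2 expression of each of the 110 lines in replicate 1 (horizontal axis) and replicate 2 (vertical axis) for the second Cht8 probe set, Cht1, Cht6 and CERK1; the dashed line marks equal values. Nearly all Cht6 and Cht8 points lie above the dashed line and most CERK1 points below it, and the order of the lines recurs most clearly for Cht8 (r = 0.361).

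Whether line differences recurred was asked in 2 ways, by an F test over the line means and by the correlation of replicate 1 with replicate 2 over 110 lines. In the F test without a term for the replicate number, 0 of 8 probe sets passed (limma), against 6.01% of all tested, and only Cht1 had an unadjusted p under 0.05 (0.0407). The residual of that fit holds the shift between replicate numbers.

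With the replicate number as a block, 2 of 8 passed, both of Cht8, against 16% of all tested probe sets. The repeatability (the mean square between lines minus that within lines, over their sum) was 0.361 at the second Cht8 probe set (adjusted p = 0.000349) and 0.235 at the first (adjusted p = 0.0329). The median over all tested probe sets was 0.0622.

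The Cht8 call at the first probe set depended on few lines. Without RIL139, whose replicate 2 array was the lowest of 110 at both Cht8 probe sets, Cht6, Cht1 and the second Cht3 probe set, its repeatability was 0.193 and it did not pass (adjusted p = 0.0967, range over 10 alternatives 0.0321 to 1). At the second Cht8 probe set it was 0.358 without that line and passed (adjusted p = 0.000435, range over 9 alternatives 0.000284 to 1, the highest from fits without the block). RIL139 read 6.02 and 5.17 at the second Cht8 probe set and 6.40 and 5.08 at Cht1. The 3′ minus 5′ control difference of its replicate 2 array was 3.92, against 1.28 for its replicate 1 array.

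Cht1 had a repeatability of 0.198 with the block and did not pass (adjusted p = 0.072), and neither did RLK10 with 0.188 (adjusted p = 0.0869). Cht6 had 0.105, the Cht3 probe sets 0.0668 and 0.00546, and CERK1 0.0146. The 3 probe sets called between the parents were not among those that passed over the lines.

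The correlations put the second Cht8 probe set first among the 8 too. There, replicate 1 and replicate 2 correlated with r = 0.361 and rho = 0.365 over 110 lines (permutation test, both adjusted p = 0.000807), and with r = 0.362 without the 2 lines farthest from the median. RIL095 and RIL109 were among the 11 highest lines in both replicate numbers, and RIL205, RIL215 and RIL238 among the 11 lowest in both. RIL205 read 5.33 and 6.25, and RIL109 read 7.39 and 8.23.

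RLK10 correlated with r = 0.297 (permutation test, adjusted p = 0.00774) and the first Cht8 probe set with r = 0.237 (adjusted p = 0.0306). Cht1 had r = 0.202 (adjusted p = 0.0759) but rho = 0.249 (adjusted p = 0.0245), and r = 0.297 without the 2 farthest lines. Cht6 had r = 0.106, the Cht3 probe sets 0.0695 and 0.00557, and CERK1 0.0271. The median of all tested probe sets was 0.0757 and their 90th percentile 0.339. The second Cht8 probe set thus stood at percentile 91.0 and CERK1 at 34.6.

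Cht9, dim in most arrays, had the highest correlation of the 11, with r = 0.432 and rho = 0.267 (permutation test, adjusted p = 0.00022 and 0.015). Its median was 3.27 in replicate 1 and 4.28 in replicate 2, within the background range, but its highest values were 6.62 and 7.65. Of the 11 highest lines in replicate 1, 6 were among the 11 highest in replicate 2: RIL053, RIL081, RIL082, RIL084, RIL159 and RIL209. RIL084 read 6.62 and 6.30, and RIL082 read 4.98 and 7.65. RIL081 and RIL082 are 1 of the nearly alike pairs and do not count as separate lines. In a fit without the filter on low values and with the block, chosen after the data were seen, Cht9 passed with a repeatability of 0.395 (adjusted p = 6.52e-05), where 10.7% of 57194 probe sets passed. Without the block 0 of the 11 passed, against 4.64% of all.

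The last comparison asked which of the genes varied together over the lines, with 1 array per line in each replicate number. The 6 tested probe sets of Cht1, Cht3, Cht6 and Cht8 did, in both replicate numbers. Such an r mixes differences between lines with differences between single arrays. Cht6 and the Cht3 probe sets correlated between replicate numbers with r of only 0.106, 0.0695 and 0.00557. How much of the shared variation belongs to the lines was not tested. Among the 26 pairs of probe sets of different genes, 16 had an adjusted p under 0.05 and the same sign in both replicate numbers, 14 positive and 2 negative. The p-values come from 100000 permutations and were adjusted over the 112 coefficients of all 28 pairs. The smallest p the permutations can give is 1e-05, or 2.07e-05 after adjustment. They treat the lines as independent, while the arrays of a replicate number share the array measures described further on.

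All 13 pairs among tested probe sets of different chitinases were positive and passed in both. Their r ran from 0.419 to 0.673 in replicate 1, with a median of 0.548, and from 0.318 to 0.616 in replicate 2, with a median of 0.457. The rho values ran from 0.415 to 0.684 and from 0.231 to 0.614. Without the 2 lines farthest from the median the lowest r was 0.410 in replicate 1 and 0.191 in replicate 2. Without RIL139 the replicate 2 range was 0.220 to 0.586, and 16 pairs still passed.

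Cht1 and the second probe set of its neighbour Cht3 had r = 0.630 in replicate 1 and 0.574 in replicate 2 (rho = 0.605 and 0.509, permutation test, adjusted p = 2.07e-05 for all 4). Cht1 was the probe set most alike to it among 27734 others, ranked by the mean of both r. To the first Cht3 probe set, Cht1 was the 22nd of 27734, with r = 0.479 and 0.380. In the other direction, the second Cht3 probe set ranked 4 for Cht1 and the first ranked 308. The _x_at probes of Cht3 may bind Cht1 transcript, and the part of that in these values was not tested.

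Pairs on different chromosomes ranged from close to that of Cht1 with the second Cht3 probe set to clearly below it. Cht6 and the first Cht8 probe set had r = 0.645 and 0.616 (rho = 0.645 and 0.614). Cht6 was the 3rd most alike of 27734 to that probe set, which ranked 14 for Cht6. Cht6 was the 2nd most alike to the first Cht3 probe set, with r = 0.445 and 0.548, while that probe set ranked 401 for Cht6. Cht1 and the second Cht8 probe set had r = 0.673 and 0.395, and Cht1 and Cht6 had r = 0.419 and 0.318. Many other probe sets were closer in some pairs: Cht1 ranked 2068 for Cht6, and Cht6 ranked 900 for Cht1. For the first Cht8 probe set, Cht1 ranked 399 and the first Cht3 probe set 626. As a scale, 1.44% to 7.69% of all other tested probe sets had r of at least 0.3 in both replicate numbers with a given chitinase probe set. The 2 probe sets of Cht8 correlated with r = 0.849 and 0.672, and the 2 of Cht3 with r = 0.593 and 0.435.

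**Figure D3:**
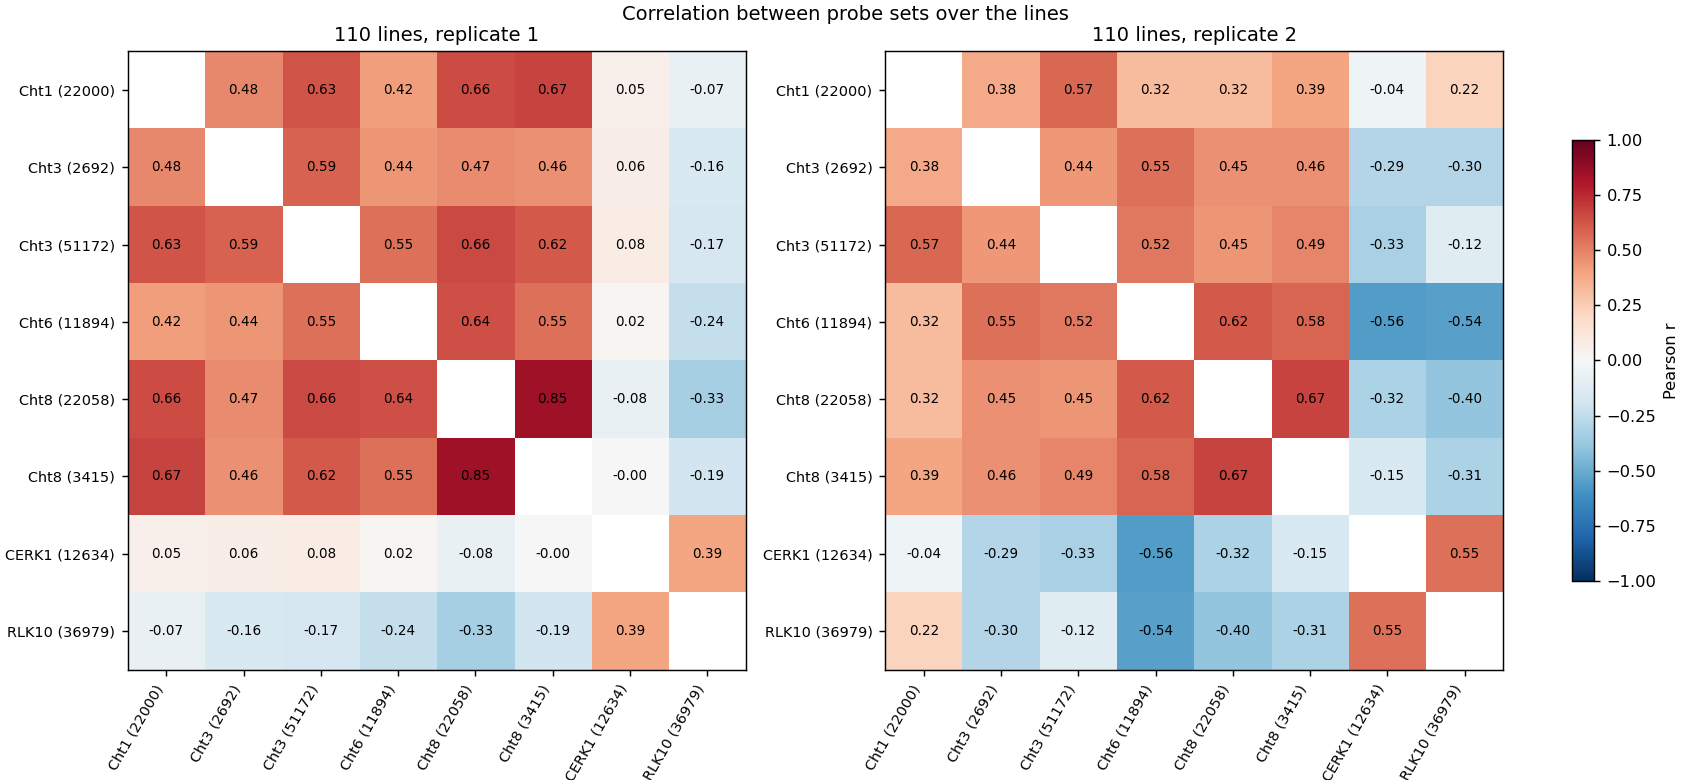
Pearson's r between the 8 tested probe sets over 110 lines in replicate 1 (left) and replicate 2 (right), on a colour scale from -1 (blue) to 1 (red); the number in brackets is the middle part of the probe set name. The block of 6 chitinase probe sets is positive in both panels, and the values of CERK1 and RLK10 with the chitinases lie between -0.329 and 0.0761 in replicate 1 and between -0.555 and 0.220 in replicate 2.

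CERK1 passed with 0 of the 6 chitinase probe sets in both replicate numbers. In replicate 1, its r with the 6 chitinase probe sets ran from -0.0751 to 0.0761 and none passed. In replicate 2 its r was below 0 with all of them and passed with 4, lowest with Cht6 (r = -0.555, rho = -0.471, permutation test, adjusted p = 2.07e-05). RLK10 was negative with Cht6 and with the first Cht8 probe set in both replicate numbers, the 2 negative pairs that passed in both. Only 1 negative pair passed in both with 1 line per alike group, and likewise without the lines whose replicates did not match best. With Cht6 it had r = -0.236 and -0.542, and with Cht8 r = -0.329 and -0.397. CERK1 and RLK10 were positive with each other, r = 0.391 and 0.552.

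**Figure D4:**
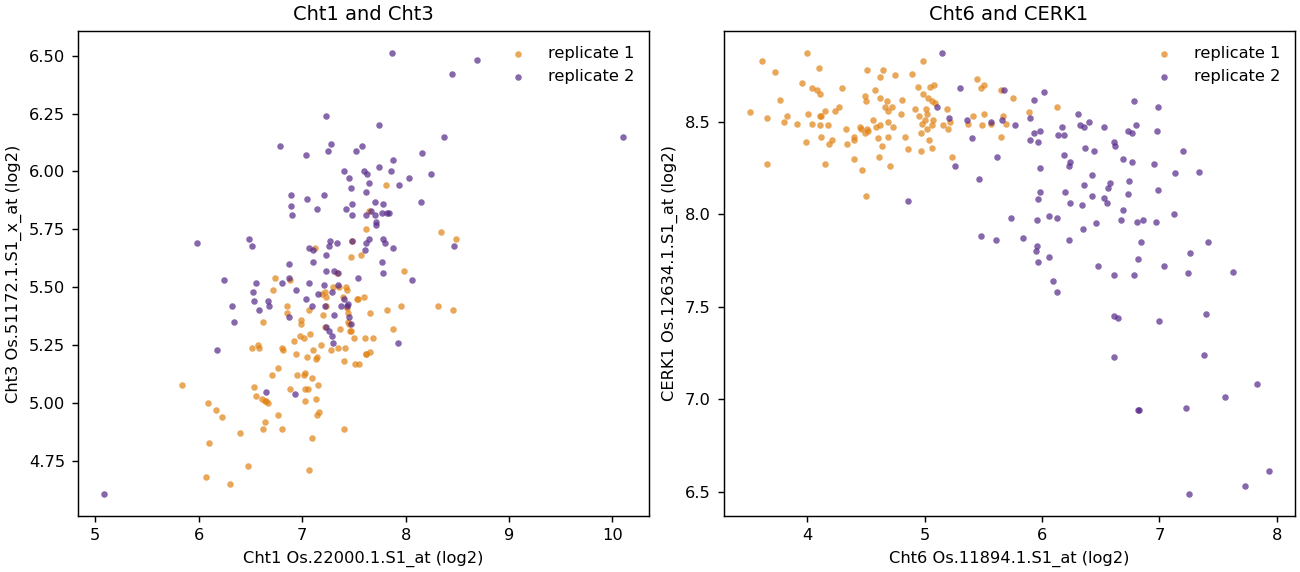
Log2 expression of each line in replicate 1 (orange) and replicate 2 (purple), for Cht1 against the second Cht3 probe set (left) and for Cht6 against CERK1 (right). The left panel rises in both replicate numbers (r = 0.630 and 0.574), and the right panel is flat in replicate 1 (r = 0.0197) and falls in replicate 2 (r = -0.555).

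Both kinases and the tested chitinases, except Cht1 in replicate 2, correlated with how far an array lay along the shift between replicate numbers. This position was computed from tested probe sets other than these genes, with 0 at the mean of replicate 1 and 1 at the mean of replicate 2. It ran from -0.438 to 0.415 in replicate 1 and from 0.147 to 1.64 in replicate 2, and from 0.292 to 0.637 in Minghui 63 and 0.489 to 0.721 in Zhenshan 97. CERK1 correlated with it at r = -0.573 and -0.755 within replicate 1 and 2, and RLK10 at -0.497 and -0.817. Cht6 had 0.359 and 0.704, the first Cht8 probe set 0.517 and 0.513, and Cht1 0.353 and 0.0376.

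After a linear adjustment for that position within each replicate number, an alternative chosen after the data were seen, all 13 chitinase pairs were still positive, with r from 0.335 to 0.628 in replicate 1 and from 0.288 to 0.612 in replicate 2. Their median r was 0.485 and 0.389, against 0.548 and 0.457 before the adjustment. No negative pair passed in both. The r of CERK1 with RLK10 became 0.150 and -0.173. The r of Cht6 with CERK1 became 0.295 and -0.0503, and that of Cht6 with RLK10 -0.0709 and 0.0811. Over all tested chitinase probe sets, the adjusted r of CERK1 ran from 0.253 to 0.430 in replicate 1 and from -0.0503 to 0.252 in replicate 2. That of RLK10 ran from -0.0971 to 0.128 in replicate 1 and from 0.0301 to 0.435 in replicate 2. The second Cht8 probe set and CERK1 then had r = 0.253 and 0.252.

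**Figure D5:**
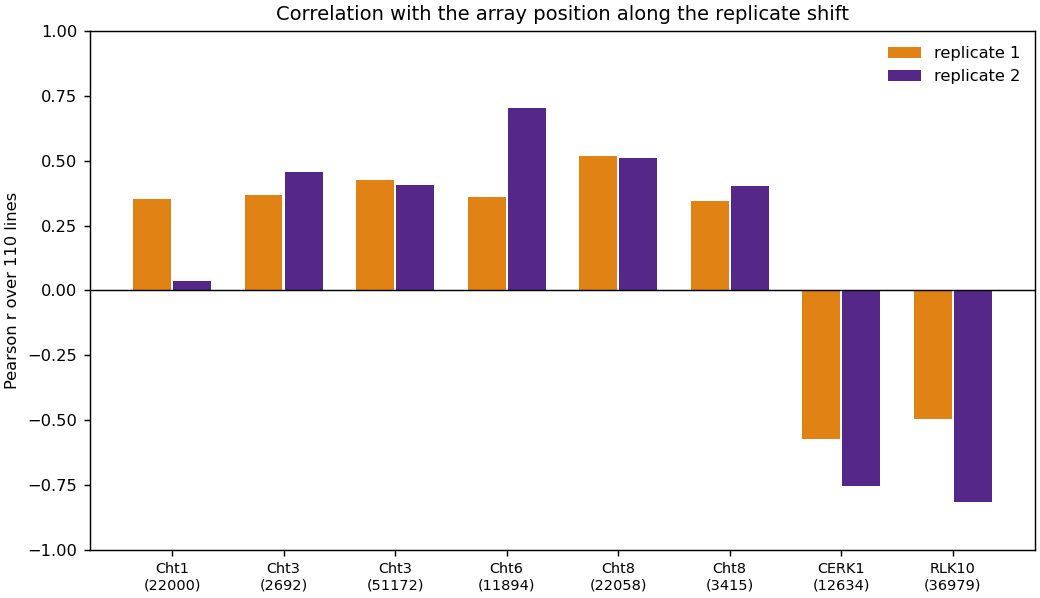
Pearson's r over 110 lines between each tested probe set and the position of the array along the shift, in replicate 1 (orange) and replicate 2 (purple). All chitinase bars are above 0, from 0.0376 to 0.704, and the CERK1 and RLK10 bars are below 0, from -0.497 to -0.817.

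Other array measures moved with single genes, in a family of 110 relations tested by permutation. In replicate 2 the 3′ minus 5′ control difference correlated with RLK10 at r = -0.659 and with Cht1 at r = -0.491 (both adjusted p = 6.47e-05). It also correlated with the second Cht3 probe set at r = -0.252 (adjusted p = 0.0195) and with CERK1 at r = -0.247 (adjusted p = 0.0229). After adjustment for it, the chitinase pairs had r from 0.416 to 0.672 in replicate 1 and from 0.419 to 0.611 in replicate 2. The summed root markers correlated in replicate 1 with the Cht8 probe sets at r = 0.346 and 0.398, with Cht1 at r = 0.328 and with the second Cht3 probe set at r = 0.320. In replicate 2 these values were 0.161, 0.214, 0.140 and 0.202, none of which passed, whereas Cht6 (r = 0.267) and the first Cht3 probe set (r = 0.313) passed there. The root marker sum ran from 8.43 to 13.7 in the replicate 1 lines. Its members IRT1, IRT2, NAS1 and NAS2 differed between lines, with blocked repeatabilities of 0.680 to 0.742. Whether the sum follows the amount of root tissue was not tested. The summed seed markers correlated with CERK1 at r = 0.479 and 0.613 and with RLK10 at r = 0.439 and 0.774, while 4 of the 7 measured were at background. With Cht6 they had r = -0.171 and -0.456, of which the replicate 2 value passed (adjusted p = 6.47e-05). In replicate 2 Cht1 (r = 0.260, adjusted p = 0.0161) and the first Cht3 probe set (r = -0.232, adjusted p = 0.0375) passed too, with opposite signs. The brightest seed markers in the parents were GLB1 and SBE, which moved by -0.06 and -0.97 from replicate 1 to replicate 2 of the lines. The part of either in these correlations was not tested. The summed shoot and greening markers, which differed between the parents, correlated with CERK1 at r = -0.399 in replicate 1 (adjusted p = 0.00011) and -0.0731 in replicate 2 (adjusted p = 0.56), and with RLK10 at -0.265 (adjusted p = 0.0125) and -0.00917 (adjusted p = 0.943). The part of these markers in the pair correlations was not tested.

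The named genes most alike to each probe set over the lines included other chitinases for each chitinase. For the second Cht8 probe set they were Rcb4, which the annotation also names chitinase (r = 0.681 and 0.512), PBZ1, a pathogenesis-related protein of the PR10 family (r = 0.650 and 0.527), and Cht6. For Cht1 they were Cht3, PBZ1 (r = 0.494 and 0.684) and Rcb4 (r = 0.481 and 0.656). The second Cht3 probe set had Cht1, Rcb4 (r = 0.577 and 0.542) and Cht8. For Cht6 they were GRXS2, listed among the glutaredoxins (r = 0.572 and 0.698), Cht8 and CML5, a calmodulin-like protein (r = 0.577 and 0.651). The first Cht8 probe set had Cht6, SDH6, a succinate dehydrogenase subunit (r = 0.640 and 0.609), and GRXS2. The first Cht3 probe set had Cht6, Cht8 and CAD8A, a cinnamyl alcohol dehydrogenase (r = 0.495 and 0.379).

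The kinases had other partners. CERK1 was most alike to a ceramidase gene (r = 0.654 and 0.833), HIP1 (r = 0.644 and 0.836) and HAK15, a potassium transporter (r = 0.679 and 0.786). RLK10 was most alike to HSP81-3, a heat shock protein of the HSP90 family (r = 0.711 and 0.815), and PDHE1-B, a pyruvate dehydrogenase subunit (r = 0.565 and 0.880), and moved against GNA1 (r = -0.565 and -0.858). HSP81-3, PDHE1-B and GNA1 all lie on chromosome 9, as RLK10 does. What their shared chromosome contributes was not tested. The 99th percentile of the mean of both r over all other tested probe sets was 0.675 for CERK1 and 0.651 for RLK10. Of those probe sets, 16.6% had r of at least 0.3 with CERK1 in both replicate numbers, and 11.99% with RLK10.

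In the lines, 494 probe sets segregated clearly (a parental log2 difference of at least 1, called or not, and a blocked repeatability of at least 0.7). Among them, the closest one to each gene was on another chromosome wherever its chromosome was known. The first Cht8 probe set, Cht6 and the first Cht3 probe set shared the same closest one, on chromosome 3, with r between 0.273 and 0.368. The second Cht3 probe set was closest to IRT2, an iron transporter gene on chromosome 3 (r = 0.393 and 0.289). The second Cht8 probe set was closest to one on chromosome 5 (r = 0.341 and 0.432). RLK10 had r = -0.717 and -0.431 with one that has no gene assigned to it alone. These were the highest of 494 values each and are descriptions.

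The genes of chitin perception and signalling around CERK1 formed a list of 14 measured genes in this comparison. All were tested, and 2 were higher in Minghui 63 and 0 were lower, where 4.93% and 5.59% of all tested probe sets were called, with a median log2 difference of 0.24 against 0.04 over all tested probe sets. BAK1, a co-receptor kinase, averaged 10.02 in Minghui 63 against 9.23 (log2 difference 0.79, SE 0.14, limma adjusted p = 0.015), and LYP4, a LysM protein that binds chitin and peptidoglycan, 9.37 and 8.68 (0.69, SE 0.18, adjusted p = 0.0496). CEBiP, the partner of CERK1, averaged 8.90 and 8.63 (adjusted p = 0.47). None of the 14 passed the F test over the lines with or without the block, where 16% and 6.01% of all tested probe sets passed. All 14 were called lower in replicate 2, in a test that called 48.5% of all tested probe sets lower and 43.7% higher.

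Of the other defence lists, 1 of 6 tested genes of diterpenoid phytoalexin synthesis was called between the parents, against 10.5% of all tested probe sets. OsMAS, a dehydrogenase of momilactone synthesis, averaged 7.35 in Minghui 63 against 6.32 (log2 difference 1.03, SE 0.26, adjusted p = 0.0459). CYP71Z6, a cytochrome P450 of the same list, was the 1 of 6 that passed the blocked F test over the lines, against 16% of all (repeatability 0.349, adjusted p = 0.00057). Of 8 tested pathogenesis-related and regulatory genes, 0 were called between the parents, and 1, NH3, a relative of the regulator NPR1, passed over the lines with the block (repeatability 0.223, adjusted p = 0.0447). PBZ1 averaged 12.08 in Minghui 63 and 12.42 in Zhenshan 97 (adjusted p = 0.522). The only other tested chitinase or glucanase of the list, Cht10, averaged 5.73 and 5.86 (adjusted p = 0.74).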

How the data were processed

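Log2 values of 226 Affymetrix Rice Genome arrays, 1 per probe set and array with 2 decimals, were used as the authors deposited them. RMA and the affy package are named in the submitters' processing notes, without versions or settings. RMA shares strength between arrays and compresses low signals. All 226 columns were matched to a sample by title. The 187 control probe sets and those with a mean under 5 were left out of the tests. Genes came from the platform annotation (22436 probe sets with 1 gene, 95 with several, unnamed here) and the RefSeq table of assembly ASM3414082v1, which served for names, chromosomes and gene order only. No sequence is printed, since no sequence table was used here.

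The parents, the line F test and the paired shift were fitted across all tested probe sets with limma 3.58.1 in R 4.3.3, with Benjamini-Hochberg adjustment and a threshold of 0.05. All adjusted p-values of differences, repeatabilities and shifts are from limma. Correlations used 100000 two-sided permutations (numpy 2.4.6, scipy 1.17.1). The fits were tested on simulated data. The named genes were every matched probe set, the 3 most alike named genes and the closest segregating probe set of each, and up to 4 called genes of each list between the parents and up to 3 over the lines. An actin gene matched through the name RAC1 and genes matched through CHI and GLU were taken out for their identity. CEBiP, PBZ1 and Cht10 were added after their values were seen. Members, lists and tests were chosen with earlier results of these data known. The labels call the arrays biological replicates and do not say whether they came from separate sowings, so p-values measure the spread between these samples.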

Additional observations from a re-analysis of the deposited data

Results flagged for a closer look

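For 5 pairs of probe sets the correlation over the lines differed between replicate 1 and replicate 2, tested by permuting the replicate labels within lines and adjusted over all 28 pairs. Cht6 with CERK1 went from r = 0.0197 to -0.555, a difference of -0.575 (permutation test, adjusted p = 0.00196). Cht6 with RLK10 differed by -0.306 (adjusted p = 0.0319), and the second Cht3 probe set with CERK1 by -0.404 (adjusted p = 0.0332). Cht1 differed by -0.338 with the first Cht8 probe set (adjusted p = 0.0154) and by -0.279 with the second (adjusted p = 0.0428). Both of these stayed positive, at r = 0.318 and 0.395 in replicate 2.

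The replicate 2 arrays spread wider along the shift between replicate numbers (SD 0.355 against 0.153) and in the 3′ minus 5′ control difference (SD 0.784 against 0.160). The part of these measures in the 5 differences was not tested.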

How the results depend on the processing

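Between the parents, 3 of 8 probe sets passed. Leaving out 1 array at a time gave 0 to 2 (1164 to 3146 of all 27735). The fit with all 226 arrays gave 0 (1393 of all), median-centred arrays 1 (2754) and the replicate block 0 (934). No filter on low values gave 0 of 11 (2666 of all 57194). With a mean of at least 7, 2 of the 3 probe sets left passed, Cht1 and CERK1, where 2831 of all 15110 passed. The parents' replicate numbers did not pair the arrays (correlations of their deviations -0.307, -0.0657 and -0.391). Over single probe sets and alternatives, 56 parental differences kept their side of the threshold, 27 lost it and 0 reversed. All 27 belonged to the 3 called probe sets, which lost their call in most alternatives. Most of the 56 belonged to probe sets that the main fit did not call and that stayed uncalled. Over the lines, 0 passed without the block (1668 of all 27735). The replicate block gave 2, both of Cht8 (4430 of all 27735), also with median-centred arrays (4447) and without RIL134 (4402). With the block, 3 of 11 passed without a filter (6125 of all 57194). With the block, 1 each passed with 1 line per alike group (4213 of all 27735), without the mismatched lines (4327) and without RIL139 (4137). The deviations of lines by replicate number correlated above 0.1 in 99.4% of 5995 pairs of lines (median 0.705). Leaving out a replicate of the lines was not possible for the F test, since 1 array per line leaves no residual. With a mean of at least 7, 3 of 3 passed for the shift, where 13793 of all 15110 passed. The 16 correlated pairs (2 negative) became 14 to 24: 15 (1 negative) with 1 line per alike group and without the mismatched lines, 14 (0 negative) after adjustment for the shift position, 24 on pooling both replicate numbers without centring and 21 for line means with the replicate block. The 14 after adjustment were not the same as the 14 positive pairs of the main test. CERK1 with RLK10 was no longer among them, with r = 0.150 in replicate 1 and -0.173 in replicate 2. RIL134, RIL139, the pooled values, the adjustments for array measures and the unfiltered shift and block fits were chosen after the data were seen. Dim probe sets, near the Tag controls, limit what can be said of Cht9.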
